A study of Physcomitrium patens with 21 samples.

Results

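A set of 159 gene models of the moss Physcomitrium patens, out of 32926 in the count tables, was followed through the first day after shoot decapitation. The members were chosen on measured values. Counts were scaled to CPM (counted read pairs of a gene relative to those of its library), and differences were taken on the scale of log2(group mean CPM + 1). A member had a mean of at least 5 CPM at 0 h, a 12 h minus 0 h difference of at most -0.8, a 24 h minus 0 h difference between -0.5 and 0.5, and a difference between auxin-treated and mock-treated plants between -0.5 and 0.5. The floor at 0 h was met by 15908 genes, the 12 h criterion also by 848, the 24 h criterion also by 381, and the auxin criterion also by the 159 members. The 12 h dip, the return at 24 h and the small auxin difference are therefore the choice itself and are given as descriptions without a test.

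All groups were Gransden wild type, and the RNA came from tissue labelled as gametophore stem. The decapitation series comprised 5 groups, collected 0, 2, 6, 12 and 24 h after the shoot tip was removed, with 4-week-old colonies and 5 to 10 gametophores pooled per replicate. The auxin experiment comprised plants treated for 30 min with 10 µM IAA (indole-3-acetic acid, the main natural auxin) and plants given the mock solvent for 30 min. Each group had 3 libraries, which the series calls biological replicates, and all plants were grown at 23 °C in 16 h of light and 8 h of dark. The treatment label of the 24 h group also carries the term biotic stress, which the labels of the other groups do not. The hours of collection were not among the values used, and no intact stems of later hours were analysed here, so time since decapitation and hour of day cannot be told apart. The stem label was not checked by marker genes, because nothing used here gives gene names for the identifiers.

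Mosses grow leafy shoots, the gametophores, from a single stem cell at the tip. Auxin made near the tip moves down the stem and keeps cells below it from starting side branches, and removal of the tip releases branching, as in the apical dominance of flowering plants. Auxin works through its receptors by destroying repressor proteins, which lets response factors change the transcription of their target genes, and early targets respond within minutes. As no identifier is paired with a name or a product, no role can be given for any member, and members are named by identifier only.

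The libraries held 18995348 to 32039288 counted read pairs. Between 94.589% and 96.206% of reads were mapped, and replicates differed by more than counting noise in every group. All 159 members passed the low-count filter of the decapitation series, where 20269 genes were tested, as the floor at 0 h made nearly certain. In the auxin experiment 157 of the 159 were tested, among 19989 genes. The exceptions, Pp3c20_18310V3.1 and Pp3c4_22670V3.1, had between 1 and 21 read pairs per library there. Membership rested on replicate 3 of the 24 h group in 8 members, which did not meet the rule without it. Counts are also given without them. Other libraries mattered as well: 141 of the 159 met the rule without replicate 2 of mock, and 142 without replicate 3 of 0 h. In all 15 lists that left out 1 library, 95 members were present. The p-values given are from the quasi-likelihood test of edgeR, adjusted by the Benjamini-Hochberg method over all genes tested, and a gene was called at an adjusted p below 0.05. In these bulk samples fewer cells of one type and less RNA per cell cannot be told apart.

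As a group the members took up less and less of the messenger RNA until 12 h and were back at 24 h. Their share of all counted pairs was 2.48%, 2.57% and 2.59% in the 3 libraries at 0 h, and 2.05%, 2.11% and 2.09% at 2 h. It was 1.44%, 1.44% and 1.45% at 6 h, and 1.09%, 1.12% and 1.12% at 12 h. At 24 h it was 2.66%, 2.66% and 2.76%. The libraries of neighbouring times up to 12 h did not overlap, and those of 24 h lay above those of 0 h. A single gene, Pp3c13_13170V3.1, held 9.97% of the summed 0 h level, and the 10 highest members held 45.2%. Without Pp3c13_13170V3.1 the share was 1.04% to 1.07% at 12 h, against 2.23% to 2.32% at 0 h. Each member was chosen to be lower at 12 h than at 0 h, so a dip in the sum follows from the rule whichever gene is left out.

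The typical member was about as abundant at 24 h as at 0 h. The median level of the 159 members was 67.8 CPM at 0 h, 58.3 CPM at 2 h, 42.3 CPM at 6 h, 30.9 CPM at 12 h and 63.1 CPM at 24 h. Over the 15908 genes at the floor the median stayed between 29.0 and 33.1 CPM at the same times. The median difference of the members from 0 h was -0.27 at 2 h and -0.80 at 6 h. It was -1.06 at 12 h and -0.10 at 24 h, while for the genes at the floor the medians were 0.05, 0.09, 0.10 and -0.06 at the same 4 times. By group means the members were 2.16-fold lower at 12 h than at 0 h at the median, with a range of 1.75-fold to 19.1-fold. The difference was at least 2-fold in 104 members and at least 4-fold in 14. The lowest of the 5 means lay at 12 h in 135 members and at 6 h in the other 24.

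**Figure D1:**
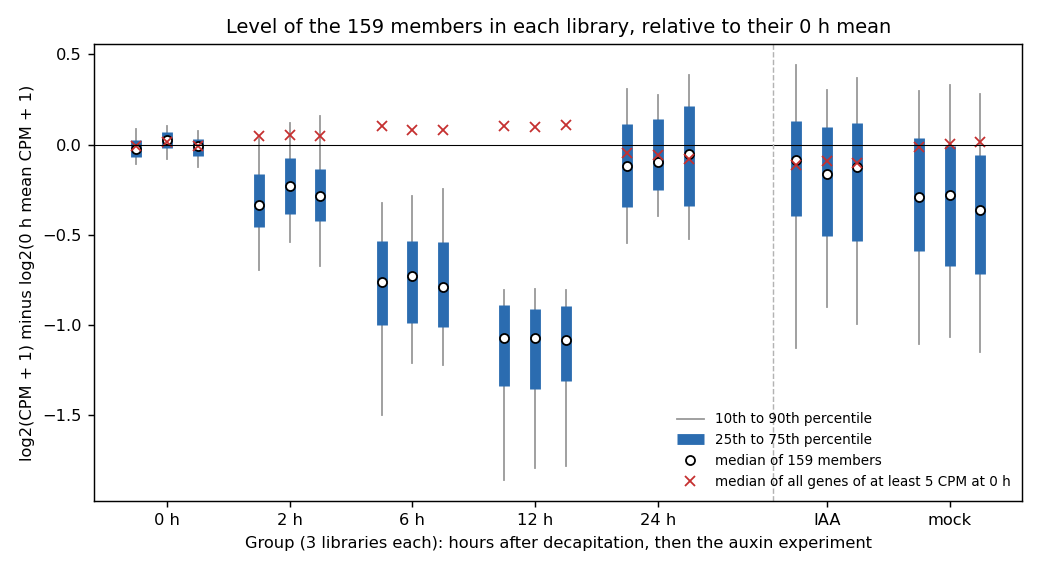
Level of the 159 members in each of the 21 libraries, as log2(CPM + 1) minus log2(0 h mean CPM + 1); circles are medians, thick bars the 25th to 75th percentile, thin lines the 10th to 90th percentile, and crosses the median of all genes of at least 5 CPM at 0 h. The member medians step down at 2, 6 and 12 h in all 3 libraries of each time and lie near 0 at 24 h, while the crosses stay near 0 throughout; the 0, 12 and 24 h, IAA and mock libraries were used to choose the members.

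The step between 2 h and 6 h was the one contrast in which neither group had been used to choose the members, and most of them were lower at 6 h. Of 159 members, 130 (81.8%) were called lower in this step, whereas 13.2% of all genes tested were. None was called higher, whereas 12.8% of all genes tested were; 1 member had an unadjusted p below 0.05 in that direction in edgeR and 1 in DESeq2, which also called none. The log2 change was below 0 in 151 members and above 0 in 8. Its median was -0.53 over the members and 0.01 over all genes tested. All 3 libraries at 6 h lay below all 3 at 2 h in 135 members (84.9%), against 18.2% of the genes at the floor, and in no member did all 3 lie above, against 30.3%. Most of these steps were moderate: 16 members were called at least 2-fold lower, where the background was 1.79%. Genes vary together within a library, so the members are not independent observations.

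**Figure D2:**
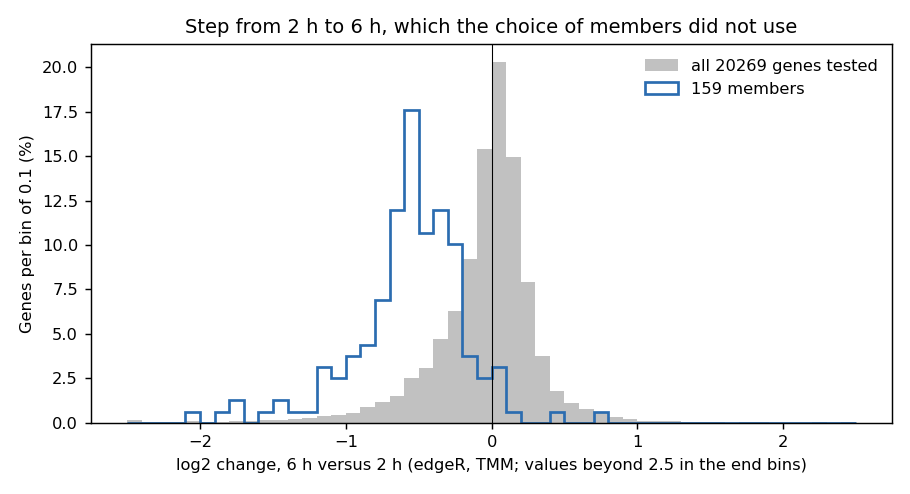
Log2 change at 6 h versus 2 h in edgeR for the 159 members (blue outline) and for all 20269 genes tested (grey), as the percentage of genes per bin of 0.1. The members centre on -0.53 and all genes on 0.01; neither the 6 h nor the 2 h libraries were used to choose the members.

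The members with the lowest log2 change in that step came close to their 12 h level by 6 h. Pp3c3_12530V3.1 had 13.1, 14.0 and 13.5 CPM at 0 h, 11.2, 8.74 and 10.4 CPM at 2 h, and 2.08, 2.73 and 2.62 CPM at 6 h. It had 2.55, 2.13 and 1.68 CPM at 12 h and 18.6, 15.01 and 16.1 CPM at 24 h. The 6 h libraries lay far below those of 2 h and overlapped those of 12 h, and the 24 h libraries were the highest of the series. Its log2 change at 6 h versus 2 h was -2.05 ± 0.145 (SE, n = 3 each; edgeR, adjusted p = 8.46e-08). Pp3c15_8710V3.1, a weakly expressed model, had 6.07, 5.51 and 6.34 CPM at 0 h, 4.70, 6.16 and 5.80 CPM at 2 h, and 1.37, 1.44 and 1.76 CPM at 6 h. It stood at 1.60, 1.67 and 2.21 CPM at 12 h and at 5.95, 5.19 and 6.96 CPM at 24 h. Its 0 h and 2 h libraries overlapped, and all 6 h libraries lay below both. The log2 change at 6 h versus 2 h was -1.88 ± 0.174 (SE; edgeR, adjusted p = 1.45e-06).

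The member with the highest mean at 0 h, Pp3c13_13170V3.1, was called lower in each step up to 12 h. With a level of 1217 CPM per kilobase of model at 0 h, it had 2436, 2555 and 2618 CPM at 0 h, 1495, 1441 and 1466 CPM at 2 h, and 569.3, 555.5 and 571.4 CPM at 6 h. It had 478.6, 523.6 and 479.2 CPM at 12 h and 3266, 3261 and 3517 CPM at 24 h. No libraries of 2 times overlapped, and the 24 h level was above that of 0 h. The log2 change of Pp3c13_13170V3.1 was -1.40 ± 0.051 at 6 h versus 2 h and -2.24 ± 0.052 at 6 h versus 0 h (SE, n = 3 each; edgeR, adjusted p = 7.35e-11 and 8.58e-14). Pp3c22_11690V3.1 was higher per length, with 1373 CPM per kilobase at 0 h, and went down far less. It had 2374, 2502 and 2616 CPM at 0 h, 1945, 1994 and 2017 CPM at 2 h, 1781, 1680 and 1716 CPM at 6 h, 1383, 1490 and 1323 CPM at 12 h, and 2757, 2678 and 2808 CPM at 24 h. Its libraries stepped down at each time without overlap, but the log2 change at 6 h versus 2 h was only -0.22 ± 0.050 (SE; edgeR, adjusted p = 0.00432).

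The first step, 2 h versus 0 h, shares the 0 h libraries with the choice of members, so a 0 h value that is high by chance favours a decrease there. Of 159 members, 104 were called lower at 2 h (background 13.8%) and 6 higher (background 12.3%), with a median log2 change of -0.34. All 3 libraries at 2 h lay below all 3 at 0 h in 105 members (background 18.3%) and above them in 10 (background 32.2%). Just 1 member was called at least 2-fold lower (background 0.587%). This was Pp3c18_16800V3.1, which had 11.8, 11.97 and 8.31 CPM at 0 h, 4.94, 4.95 and 6.18 CPM at 2 h, 3.91, 3.94 and 3.52 CPM at 6 h, 2.12, 2.38 and 2.31 CPM at 12 h, and 8.48, 7.71 and 6.12 CPM at 24 h. Its libraries stepped down at each time to 12 h without overlap, and the log2 change at 2 h versus 0 h was -1.05 ± 0.149 (SE; edgeR, adjusted p = 9.38e-05). Its further step at 6 h versus 2 h (log2 change -0.52; edgeR, adjusted p = 0.0258) did not pass the threshold in 4 of the alternatives, where the adjusted p was 0.0551 to 0.179.

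Pp3c11_15160V3.1 had the next largest decrease at 2 h. It had 163.0, 163.6 and 179.5 CPM at 0 h, 86.1, 96.1 and 92.7 CPM at 2 h, 61.9, 57.3 and 54.5 CPM at 6 h, 53.1, 52.4 and 61.8 CPM at 12 h, and 221.2, 214.3 and 220.8 CPM at 24 h. Its 6 h and 12 h libraries overlapped, and all 24 h libraries were above all those of 0 h. The log2 change was -0.94 ± 0.068 at 2 h versus 0 h and -0.68 ± 0.069 at 6 h versus 2 h (SE, n = 3 each; edgeR, adjusted p = 1.38e-07 and 3.29e-06).

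Some of the members were higher at 2 h than at 0 h before they were lower; the count of 6 was 3 without replicate 3 of 2 h. Pp3c2_9950V3.1 had 58.1, 55.0 and 54.6 CPM at 0 h, 120.5, 78.9 and 126.4 CPM at 2 h, 31.3, 36.8 and 43.0 CPM at 6 h, 28.8, 28.5 and 26.7 CPM at 12 h, and 44.4, 49.4 and 55.2 CPM at 24 h. All 2 h libraries were above, and all 6 h libraries below, those of 0 h. Its log2 change was 0.90 ± 0.145 at 2 h versus 0 h and -1.57 ± 0.149 at 6 h versus 2 h (SE, n = 3 each; edgeR, adjusted p = 0.000287 and 1.82e-06). The other 5 members called higher at 2 h, 4 of them named after their values were seen, changed less. Pp3c10_4440V3.1 had a log2 change of 0.55, Pp3c7_20320V3.1 of 0.49, Pp3c14_8940V3.1 of 0.28, Pp3c2_6690V3.1 of 0.26 and Pp3c4_23540V3.1 of 0.14 (edgeR, adjusted p from 0.00016 to 0.0435). For Pp3c10_4440V3.1 the call at 2 h was lost without replicate 2 or replicate 3 of 0 h or replicate 3 of 2 h, where the adjusted p was 0.0546 to 0.0861.

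**Figure D3:**
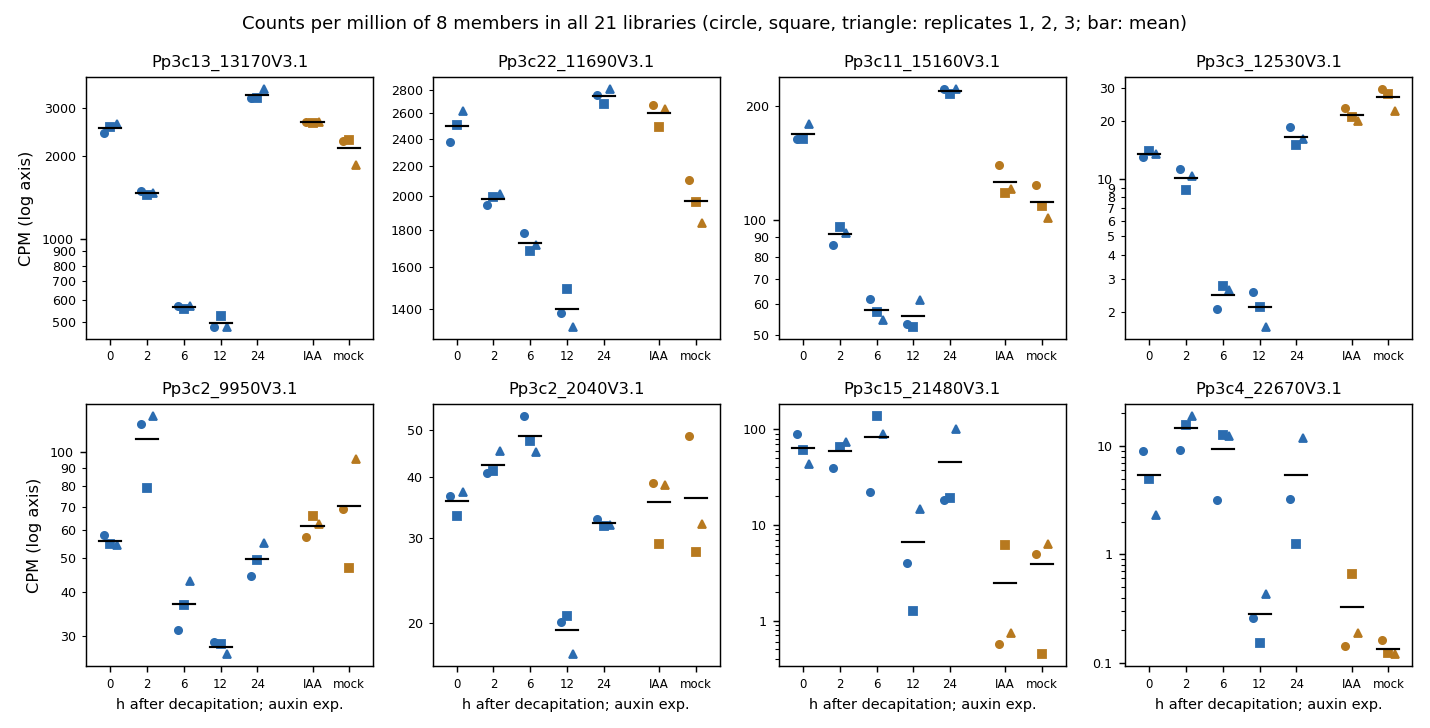
CPM on a log axis of 8 members in each library of the decapitation series (blue, by hours) and of the auxin experiment (ochre, IAA then mock); circles, squares and triangles are replicates 1, 2 and 3 and bars are group means. Most panels show a step down to 12 h and levels near or above 0 h at 24 h; Pp3c2_9950V3.1 peaks at 2 h and Pp3c2_2040V3.1 at 6 h, and in Pp3c15_21480V3.1 and Pp3c4_22670V3.1 replicate 3 stands alone at 24 h.

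By 6 h nearly all members were below their starting level. Against 0 h, 145 members were called lower (background 23.6%) and 2 higher (background 24%), with a median log2 change of -0.90, and 58 were called at least 2-fold lower (background 3.48%). The 6 h libraries all lay below the 0 h libraries in 144 members (background 23.3%) and all above in 3 (background 42.5%). Pp3c3_12530V3.1 had the lowest log2 change, -2.53 ± 0.142 (SE, n = 3 each; edgeR, adjusted p = 1.37e-09). This contrast also shares the 0 h libraries with the choice of members, and with the 2 h contrast.

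Both members called higher at 6 h than at 0 h had their lowest mean at 12 h, as the rule's limits at 12 h and 24 h favour. Pp3c2_2040V3.1 had 36.5, 33.2 and 37.3 CPM at 0 h, 40.8, 41.2 and 45.2 CPM at 2 h, 53.4, 47.6 and 45.1 CPM at 6 h, 20.1, 20.7 and 17.3 CPM at 12 h, and 32.9, 31.6 and 31.9 CPM at 24 h. Its 12 h libraries stood apart from all others of the series. The log2 change at 6 h versus 0 h was 0.37 ± 0.074 (SE; edgeR, adjusted p = 0.000813, and 0.068 with all 21 libraries in the fit). Pp3c10_4440V3.1 had 70.0, 59.4 and 65.5 CPM at 0 h, 90.4, 96.8 and 109.9 CPM at 2 h, 79.0, 87.8 and 109.0 CPM at 6 h, 30.0, 31.7 and 43.8 CPM at 12 h, and 47.3, 61.2 and 73.3 CPM at 24 h. All its 2 h and 6 h libraries were above those of 0 h. The log2 change at 6 h versus 0 h was 0.42 ± 0.163 (SE; edgeR, adjusted p = 0.0439), a call that was lost in 8 alternatives, where the adjusted p was 0.0509 to 0.202.

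Most members had covered most of their 12 h difference by 6 h. The 6 h difference from 0 h was 70.3% of the 12 h difference at the median, over 50% in 111 members and over 100% in 24, with a range of -57.0% to 146.0%. At 2 h the corresponding median was 25.2%, with 23 members on the other side of 0. Taking the first time at which a member was called lower than at 0 h, that time was 2 h in 104 members (background 13.8%), 6 h in 41 (background 12.3%) and 12 h in 13 (background 8.69%). The remaining member, Pp3c5_10920V3.1, was called lower than 0 h at none of these times. Over the successive steps 2 h versus 0 h, 6 h versus 2 h and 12 h versus 6 h, 62 members were called lower in all 3, an order seen in 1.12% of all genes tested. A further 29 were called lower in the first pair of steps with no call in the last (background 1.38%), and 19 in the last pair with no call in the first (background 1.46%). The only call was lower at 6 h versus 2 h in 14 members (background 3.54%) and lower at 12 h versus 6 h in 10 (background 9.48%), and 9 were called lower in the first and the last step (background 1.75%). No step was called in 6 members (background 42.1%), and the other 10 followed further orders. Since 0 h and 12 h values chose the members, these orders are descriptions.

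The median level at 0 h was 38.3 CPM in the 29 members not called at 6 h versus 2 h and 79.4 CPM in the 130 called lower. A call is more likely where more read pairs are counted, so nothing is read from these medians.

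From 6 h to 12 h, a contrast whose 12 h libraries the rule used, 106 members were called lower (background 21.2%) and 2 higher (background 16.8%). All 3 libraries at 12 h lay below all 3 at 6 h in 105 members (background 26.5%). Both members called higher, named here after their values were seen, had their trough at 6 h. Pp3c25_14480V3.1 had 158.9, 178.8 and 180.1 CPM at 0 h, 110.2, 116.0 and 105.1 CPM at 2 h, 56.0, 61.8 and 55.2 CPM at 6 h, 86.4, 81.2 and 77.1 CPM at 12 h, and 175.5, 153.8 and 152.0 CPM at 24 h. Pp3c22_7400V3.1 averaged 346.9 CPM ± 12.4 at 6 h. The mean was 435.6 CPM ± 29.5 at 12 h, and at 24 h it was 923.7 CPM ± 19.4 (SD, n = 3 each). Of both genes the 12 h libraries were all above those of 6 h and below those of 24 h.

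Against 0 h at 12 h, which defines the set, 158 members were called lower (background 25%), 134 of them at least 2-fold (background 5.22%). For all genes together, TMM scaling moved log2 changes by -0.12 at 12 h versus 0 h, by 0.17 at 24 h versus 12 h and by 0.10 between IAA and mock, relative to scaling on library totals. The member not called, Pp3c5_10920V3.1, was uneven between replicates, with 4.45, 4.46 and 6.20 CPM at 12 h and 16.2, 7.18 and 5.64 CPM at 0 h. At the threshold of -0.8 the nearest members inside were Pp3c16_7170V3.1, with means of 63.2 CPM at 12 h against 110.8 CPM at 0 h, and Pp3c14_3390V3.1, with 3.08 against 6.12 CPM. The nearest genes outside were Pp3c9_12070V3.1, with 9.80 CPM at 12 h against 17.8 CPM at 0 h, and Pp3c4_10280V3.1, with 42.2 against 74.0 CPM. All 4 differences printed as -0.80 at 2 decimals, so genes on both sides of the limit were nearly alike in this measure.

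The return at 24 h, which the rule also used, is described by its size. Against 12 h, 158 members were called higher at 24 h (background 24%), 112 of them at least 2-fold (background 4.27%), and 155 had all 24 h libraries above all 12 h libraries (background 16.2%). The exception, Pp3c15_17290V3.1, is named after its values were seen, with 5.78 CPM ± 0.557 at 24 h against 4.42 CPM ± 2.34 at 12 h (SD, n = 3 each). Being within the limit of 0.5 did not mean an equal level: 37 members were called lower than at 0 h (background 16.5%), 42 higher (background 18.6%) and 80 neither way.

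**Figure D4:**
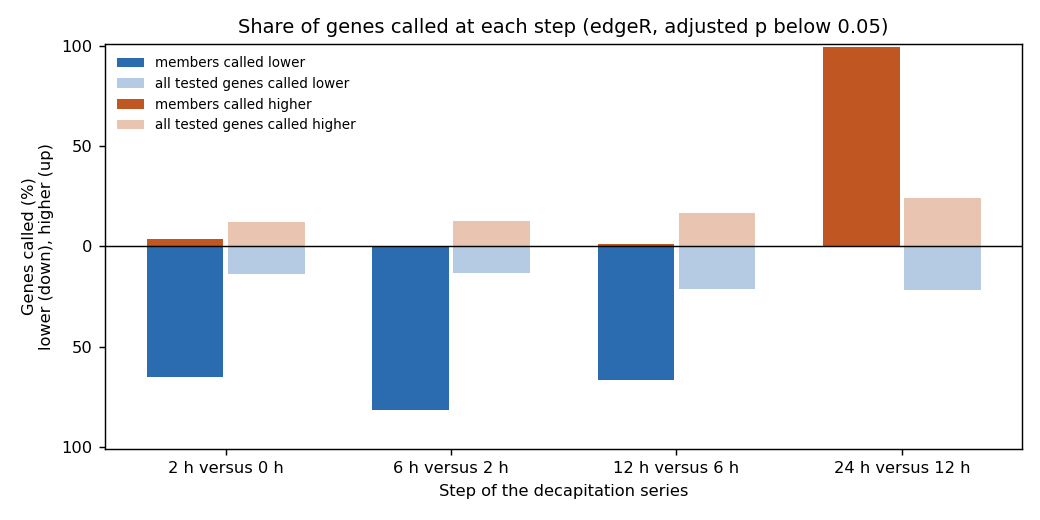
Percentage of the 159 members (dark) and of all 20269 genes tested (pale) called higher (up) or lower (down) at each step of the decapitation series in edgeR at an adjusted p below 0.05. At 6 h versus 2 h, the step that the choice of members did not use, 81.8% of members and 13.2% of all genes were called lower; at 24 h versus 12 h nearly all members were called higher, as the rule requires.

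The members with the lowest 12 h differences, of -3.08 and -3.07, differed in how closely their replicates ran. Pp3c15_21480V3.1 had 88.5, 60.2 and 43.8 CPM at 0 h, 39.5, 64.8 and 73.7 CPM at 2 h, 22.1, 136.9 and 88.9 CPM at 6 h, 3.98, 1.27 and 14.8 CPM at 12 h, and 18.3, 19.2 and 99.8 CPM at 24 h. Its 12 h libraries were the lowest of the series, but replicate 3 stood alone at 24 h, and the 6 h libraries spread over the whole range of 2 h and beyond. At 6 h versus 2 h its log2 change was 0.45 ± 0.667 (SE; edgeR, adjusted p = 0.662). Pp3c22_12540V3.1 had 99.3, 63.3 and 83.0 CPM at 0 h, 100.6, 101.6 and 166.5 CPM at 2 h, 20.5, 50.5 and 42.8 CPM at 6 h, 11.5, 5.48 and 9.56 CPM at 12 h, and 59.6, 93.1 and 117.1 CPM at 24 h. Its 6 h libraries all lay below those of 2 h and above those of 12 h, and its log2 change at 6 h versus 2 h was -1.72 ± 0.323 (SE; edgeR, adjusted p = 0.00113).

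Without replicate 3 of the 24 h group, 8 members no longer met the rule. In 7 of them that library was between 1.94 and 11.8 times the higher of the other 24 h libraries, and without it their 24 h level was below the limit of the rule. These were Pp3c15_21480V3.1, Pp3c20_18310V3.1, Pp3c22_7050V3.1, Pp3c25_2730V3.1, Pp3c3_16620V3.1, Pp3c4_22670V3.1 and Pp3c5_15770V3.1. All but Pp3c15_21480V3.1 and Pp3c4_22670V3.1, which the naming rule gave, are named after their values were seen. Of the 7, 4 were among the 6 lowest 12 h differences of the set. The 24 h difference of Pp3c15_21480V3.1 was -0.48 with that library and -1.72 without it, and that of Pp3c3_16620V3.1 was 0.31 with it and -1.66 without it. In Pp3c4_22670V3.1, which also had the highest coefficient of variation at 0 h, the levels were 8.91, 4.93 and 2.30 CPM at 0 h, 9.16, 15.8 and 18.8 CPM at 2 h, 3.16, 12.7 and 12.4 CPM at 6 h, 0.259, 0.152 and 0.432 CPM at 12 h, and 3.21, 1.26 and 11.8 CPM at 24 h. For these 7 genes a 24 h mean within the limit rested on that library. The eighth, Pp3c5_7180V3.1, had means of 5.23 CPM at 0 h, 2.40 CPM at 12 h and 7.49 CPM at 24 h, and its 24 h difference was 0.45 with that library and 0.52 without it. Of the 151 members left, 128 were called lower at 6 h versus 2 h (background 13.2%). At 2 h versus 0 h 104 were called lower (background 13.8%), and at 6 h versus 0 h 143 were (background 23.6%).

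The contrast of auxin-treated and mock-treated plants was also used by the rule and is given as a description. Of the 157 tested, 80 were called higher in IAA (background 21.3%) and 3 lower (background 18.4%). The auxin criterion thus stands for a difference within 0.5 on the scale of log2(group mean CPM + 1), not for the lack of a call. In edgeR, which used TMM scaling, the median log2 change of the members tested was 0.30, and some called members exceeded 0.5. Among these were Pp3c22_11690V3.1, with 0.5045 (edgeR, adjusted p = 0.0028), and Pp3c24_10380V3.1, named after its values were seen, with 0.61 (edgeR, adjusted p = 0.0133). The IAA mean was above the mock mean in 110 of the 159. Their share of all counted pairs was 2.51%, 2.41% and 2.46% in the IAA libraries and 2.16%, 2.17% and 2.03% in the mock libraries, without overlap. The median level was 58.0 CPM in IAA, against 51.4 CPM in mock. The median difference was 0.19 for the members and -0.12 for the genes at the floor. All 3 IAA libraries lay above all 3 mock libraries in 68 members (background 21.4%) and below them in 15 (background 41.9%).

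Pp3c13_13170V3.1 had 2677, 2653 and 2675 CPM in IAA and 2273, 2295 and 1867 CPM in mock. Pp3c22_11690V3.1 had 2668, 2492 and 2639 CPM in IAA and 2106, 1966 and 1838 CPM in mock. In both, every IAA library was above every mock library. Both genes were among the 80 called higher. Pp3c3_12530V3.1 averaged 21.5 CPM ± 1.80 in IAA and 26.7 CPM ± 3.61 in mock (SD, n = 3 each), and was not called. The 3 members called lower in IAA, named after their values were seen, were Pp3c6_17410V3.1, Pp3c2_16400V3.1 and Pp3c16_19410V3.1. Their means were 12.3, 104.9 and 102.4 CPM under IAA, against 16.5, 138.2 and 126.4 CPM under mock.

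Levels in the auxin experiment are set beside those of the decapitation series as values only. Temperature and light period are the same in the labels, but the growth protocols of the experiments differ. Colony age and pooling are given for the decapitation series alone. The mock mean lay between the 12 h and 0 h means in 103 members, above the 0 h mean in 39 and below the 12 h mean in 17. Pp3c15_21480V3.1 was among the last, with 0.570, 6.18 and 0.751 CPM in IAA and 4.99, 0.448 and 6.35 CPM in mock, far below its 0 h libraries. Pp3c4_22670V3.1 averaged 0.329 CPM ± 0.285 in IAA and 0.135 CPM ± 0.024 in mock (SD, n = 3 each), against 5.38 CPM ± 3.33 at 0 h. A small auxin difference was therefore met by some members at levels where few read pairs were counted.

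In model length the members were close to the other expressed genes. Their median model length was 2264 bases, with a range of 630 to 6401, beside 2360 bases for the genes at the floor. At 0 h, a group that the rule used, they were more abundant, with a median of 28.4 CPM per kilobase against 12.7 for the genes at the floor. The median level was also higher at 2 h, with 58.3 CPM against 32.2 CPM, and at 6 h, with 42.3 CPM against 33.1 CPM. It was 63.1 CPM against 29.0 CPM at 24 h. In mock it was 51.4 CPM against 30.8 CPM, and in IAA 58.0 CPM against 29.2 CPM. Only at 12 h, where the rule chose low values, was it not higher, with 30.9 CPM against 32.4 CPM. The members' coefficient of variation over the 0 h libraries had a median of 5.21%, beside 5.24%, and exceeded 20% in 11 members at 0 h and in 15 at 24 h. In every other group the members' median was the higher one, for example 6.45% against 5.10% at 6 h and 8.21% against 7.16% in mock. The median 12 h difference was -1.07 in the members at or above the median level and -1.05 in those below it. The identifiers of 158 members begin with Pp3c, and they carry all 27 of the numbers that follow that prefix, with at most 14 members under one number. In the order of all models 3 pairs of members were neighbours, namely Pp3c3_24600V3.1 and Pp3c3_24618V3.1, Pp3c11_19400V3.1 and Pp3c11_19410V3.1, and Pp3c19_5510V3.1 and Pp3c19_5540V3.1. In the order of the models at the floor 6 pairs were, these 3 included. No background was computed for either count, so nothing is read from them.

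Genes that met the same floor and 12 h limit, but not the same 24 h or auxin limit, give a further scale for the step from 2 h to 6 h. The 154 genes still lower at 24 h, with a small auxin difference, had 47 called lower at 6 h versus 2 h (30.5%), and the 212 genes that returned at 24 h and were raised by IAA had 152 (71.7%), beside 130 of 159 members (81.8%). The median 6 h difference from 0 h was -0.80 in the members, -0.60 in the genes still lower at 24 h and -0.78 in the IAA-raised genes. At 2 h the medians were -0.27, -0.38 and -0.37 in the same order. No test of a difference between the lists was made. The like lists were chosen on the same 0 h, 12 h and 24 h libraries.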

How the data were processed

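Whole-number counts of read pairs per gene model, deposited by the authors without normalization, were used for all 21 libraries. Per the file headers, the counting program sam2pkm treated single reads as unmapped, removed reads with equally good hits elsewhere, and counted pairs with both mates on the same model on opposite strands. Models with near-identical copies are therefore undercounted. Per the submitters' processing notes, alignment software was Bowtie2 (no version). The libraries were polyA-selected and stranded, per the labels' protocols; the genome build, the annotation and any use of the strand in counting are not given in the sources used here. Antisense or overlapping genes may thus share reads. Multi-hit reads removed were 10.986% to 13.123% of a library's reads. Single-read counts, also deposited by the authors, served as an alternative.

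CPM used the total of counted pairs. Tests used R 4.3.3 and edgeR 4.0.16 (TMM, filterByExpr, glmQLFit, glmQLFTest) on the 15 decapitation libraries, or on 6 for IAA and mock, with no covariate besides group; the biological coefficient of variation was 0.0796 and 0.0927. Alternatives used DESeq2 1.42.0, other scaling, filters, libraries and calls, the replicate block and leaving out libraries. The SE of a log2 change is its size divided by the square root of the F statistic of the quasi-likelihood test. It thus rests on the spread estimated over all libraries of the fit, and n gives the libraries per group. The pipeline was tested on simulated counts. The p-values weigh a difference between groups against the spread between replicate libraries. Nothing states how far these libraries were grown apart beyond the series' term biological replicates.

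The members, lists and tests were chosen with earlier results of these data known. Genes were named by rule: the lowest 12 h differences, the extreme called changes in each tested contrast with no overlap between groups, the highest level per kilobase, those next to the 12 h threshold and the most variable at 0 h, 2 each per direction. The word lists of gene products planned for the set could not be applied, because none of the 32926 identifiers matched the 27567 genes of the RefSeq table of assembly ASM5946719v1; no sequence is shown for the same reason.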

Additional observations from a re-analysis of the deposited data

How the results depend on the processing

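Alternative fits were run for 6 h versus 2 h, 2 h versus 0 h and 6 h versus 0 h only. Single genes were recomputed only for the members named by rule, and none of their calls in these contrasts changed direction. Calls in other contrasts, and calls of genes named after their values were seen, were not recomputed one by one. Under 8 planned changes of scaling, filter, tool, block or libraries, and with replicate 3 of 24 h left out of the fit, 125 to 133 members were called lower at 6 h versus 2 h, 91 to 111 at 2 h versus 0 h and 143 to 146 at 6 h versus 0 h. Leaving out each compared library in turn gave 121 to 126, 90 to 99 and 142 to 144. The share of all genes called may also move with the setting and is not given here, so these counts describe the members' calls only. Under the same 8 changes and without that 24 h library, the members called higher numbered 0 at 6 h versus 2 h, 5 to 7 at 2 h versus 0 h and 0 to 3 at 6 h versus 0 h. The last count was 3 with no scaling beyond the library total, 1 with RLE size factors or in DESeq2 and 0 with all 21 libraries in the fit. Leaving out each compared library gave 0 to 1 (the 1, Pp3c2_2040V3.1, without replicate 3 of 6 h), 3 to 5 and 1 to 2 in the same 3 contrasts. Requiring a 2-fold change left 16 lower at 6 h versus 2 h, 1 lower and 0 higher at 2 h versus 0 h, and 58 lower and 0 higher at 6 h versus 0 h, by construction. For 6 h and 2 h, the deviations of same-numbered replicates had correlations of 0.158, 0.0003 and 0.175. Those of differently numbered replicates ran from -0.253 to 0.162. These ranges overlapped, so the numbers were not taken to pair samples, which does not exclude a weak pairing. With the replicate block 131, 110 and 146 members were called lower and 0, 5 and 2 higher in the same 3 contrasts.

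The rule itself was more sensitive. It found 211 genes on TMM-scaled CPM, 129 of them members, 179 on group medians (133), 89 with a 12 h threshold of -1 (89), and 146 to 175 when a library was left out (141 to 157). In all 15 of those lists 95 members were present. Counting these alone was an alternative chosen after the data were seen, like the fit without replicate 3 of 24 h. Of the 95, 86 were called lower at 6 h versus 2 h (90.5%, background 13.2%) and 66 at 2 h versus 0 h (background 13.8%). At 6 h versus 0 h 93 were called lower (background 23.6%) and 0 higher (background 24%). Of 675 recomputed log2 changes of members named by rule, 642 kept direction and call. In 20 the call was lost, 7 gained one and 6 changed sign, none of them called. The sign changes all came from leaving out 1 library. The log2 change of Pp3c15_21480V3.1 then ranged from -0.11 (without replicate 2 of 6 h) to 0.91 at 6 h versus 2 h, from -0.38 to 0.14 (without replicate 1 of 0 h; 0.05 without replicate 1 of 2 h) at 2 h versus 0 h, and from -0.28 (without replicate 2 of 6 h) to 0.74 at 6 h versus 0 h. That of Pp3c5_10920V3.1 at 6 h versus 0 h ranged from -0.60 to 0.30 (without replicate 1 of 0 h; 0.034 without replicate 1 of 6 h). The cause was not tested. Members near 5 CPM rest on the fewest read pairs.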
